A study of Mus musculus with 55 samples.

Results

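The 10 genes described here take ammonia and amino acid nitrogen to urea in the liver. They were chosen by symbol as Nags, Cps1, Otc and Slc25a15 of the mitochondrial steps, Ass1, Asl and Arg1 of the cytosolic steps, and Gls2, Hal and Sds, which release ammonia from glutamine, histidine and serine. All 10 were found among the 37620 genes of the deposited tables. Expression was measured by polyA RNA sequencing of whole liver from 55 male mice of 29 Collaborative Cross (CC) lines, with 8 lines of 1 mouse, 16 of 2 mice and 5 of 3 mice. A CC line is a recombinant inbred line that mixes the genomes of 8 founder strains, so mice of a line share most of their genotype, and the lines used here were still at differing generations of inbreeding. The mice were naïve, with no treatment, and lived at Tel-Aviv University on a 12 h light and dark cycle with chow and tap water freely available. They were 8 to 11.9 weeks old (median 9.1) and weighed 12.8 to 38 g (median 23). Line mates were matched for age, apart from those of IL-785. No group served as a control, so each line was compared with the other lines.

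The urea cycle turns toxic ammonia into urea, which the kidney excretes. It begins in the mitochondria of hepatocytes, where ammonia enters as carbamoyl phosphate and leaves as citrulline, and it ends in the cytosol, where arginine is split into urea and ornithine. The enzymes are most abundant in periportal hepatocytes, those nearest to the incoming portal blood, while the pericentral hepatocytes at the other end of the lobule capture the ammonia that escapes and make glutamine from it. Amounts of these enzymes are known to follow dietary protein, fasting, glucagon and glucocorticoids.

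Each library held 20.5 to 34.0 M assigned fragments (median 27.7 M). By expression profile, 42 of the 47 mice that had a line mate were nearest to a line mate, and the exceptions were mice of IL-1052 and IL-2750, which were nearest to each other's line, and 1 mouse of IL-2146. The labels of IL-1052 and IL-2750 are therefore doubted here. Replicate 3 of IL-785 expressed Xist at 39.5 FPKM (fragments scaled to transcript length and library size) where every other mouse was at or below 0.12, beside the Y-linked Ddx3y at 12.6. Hepatocyte markers were high in every library, with Alb at 8656 FPKM or more. In the 3 mice of IL-2156 the summed cholangiocyte markers (Krt19, Epcam, Spp1) reached 124 to 207 FPKM against a median of 25.4 in the other mice, and the hepatocyte markers (Alb, Ttr, Apoa1) included the lowest sum of the cohort, 13822 FPKM. In IL-2146 the stellate cell markers (Lrat, Dcn, Reln) summed to 10.8 to 11.6 FPKM, below every other mouse. In whole liver, fewer cells of a type and less RNA per cell cannot be told apart.

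Ass1, which joins citrulline and aspartate, was the most abundant of the 10 transcripts in all 55 mice, and Nags, whose product N-acetylglutamate switches on Cps1, was the least abundant in all 55. On the FPKM scale, which is per transcript length, the mean of the 29 line means was 1379 for Ass1, 669 for Arg1, 514 for Cps1, 218 for Otc, 173 for Asl, 114 for Gls2, 109 for Sds, 103 for Hal, 95.3 for Slc25a15 and 22.4 for Nags. Arg1 and Cps1 held the next 2 ranks in every mouse. Together the 10 genes took 0.256% of the transcript total (TPM) in the lowest mouse (IL-2011), 0.450% in the median mouse and 0.763% in the highest (IL-2146 replicate 1). The ratio of Ass1 to Asl, consecutive enzymes, lay between 5.46 and 13.4 over the mice (median 7.83) and between 5.98 and 12.6 by line. That of Cps1 to its activator's enzyme Nags lay between 10.0 and 77.1 over the mice (median 23.0). By line it ranged from 11.1 in IL-72 to 65.5 in IL-4457.

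**Figure D1:**
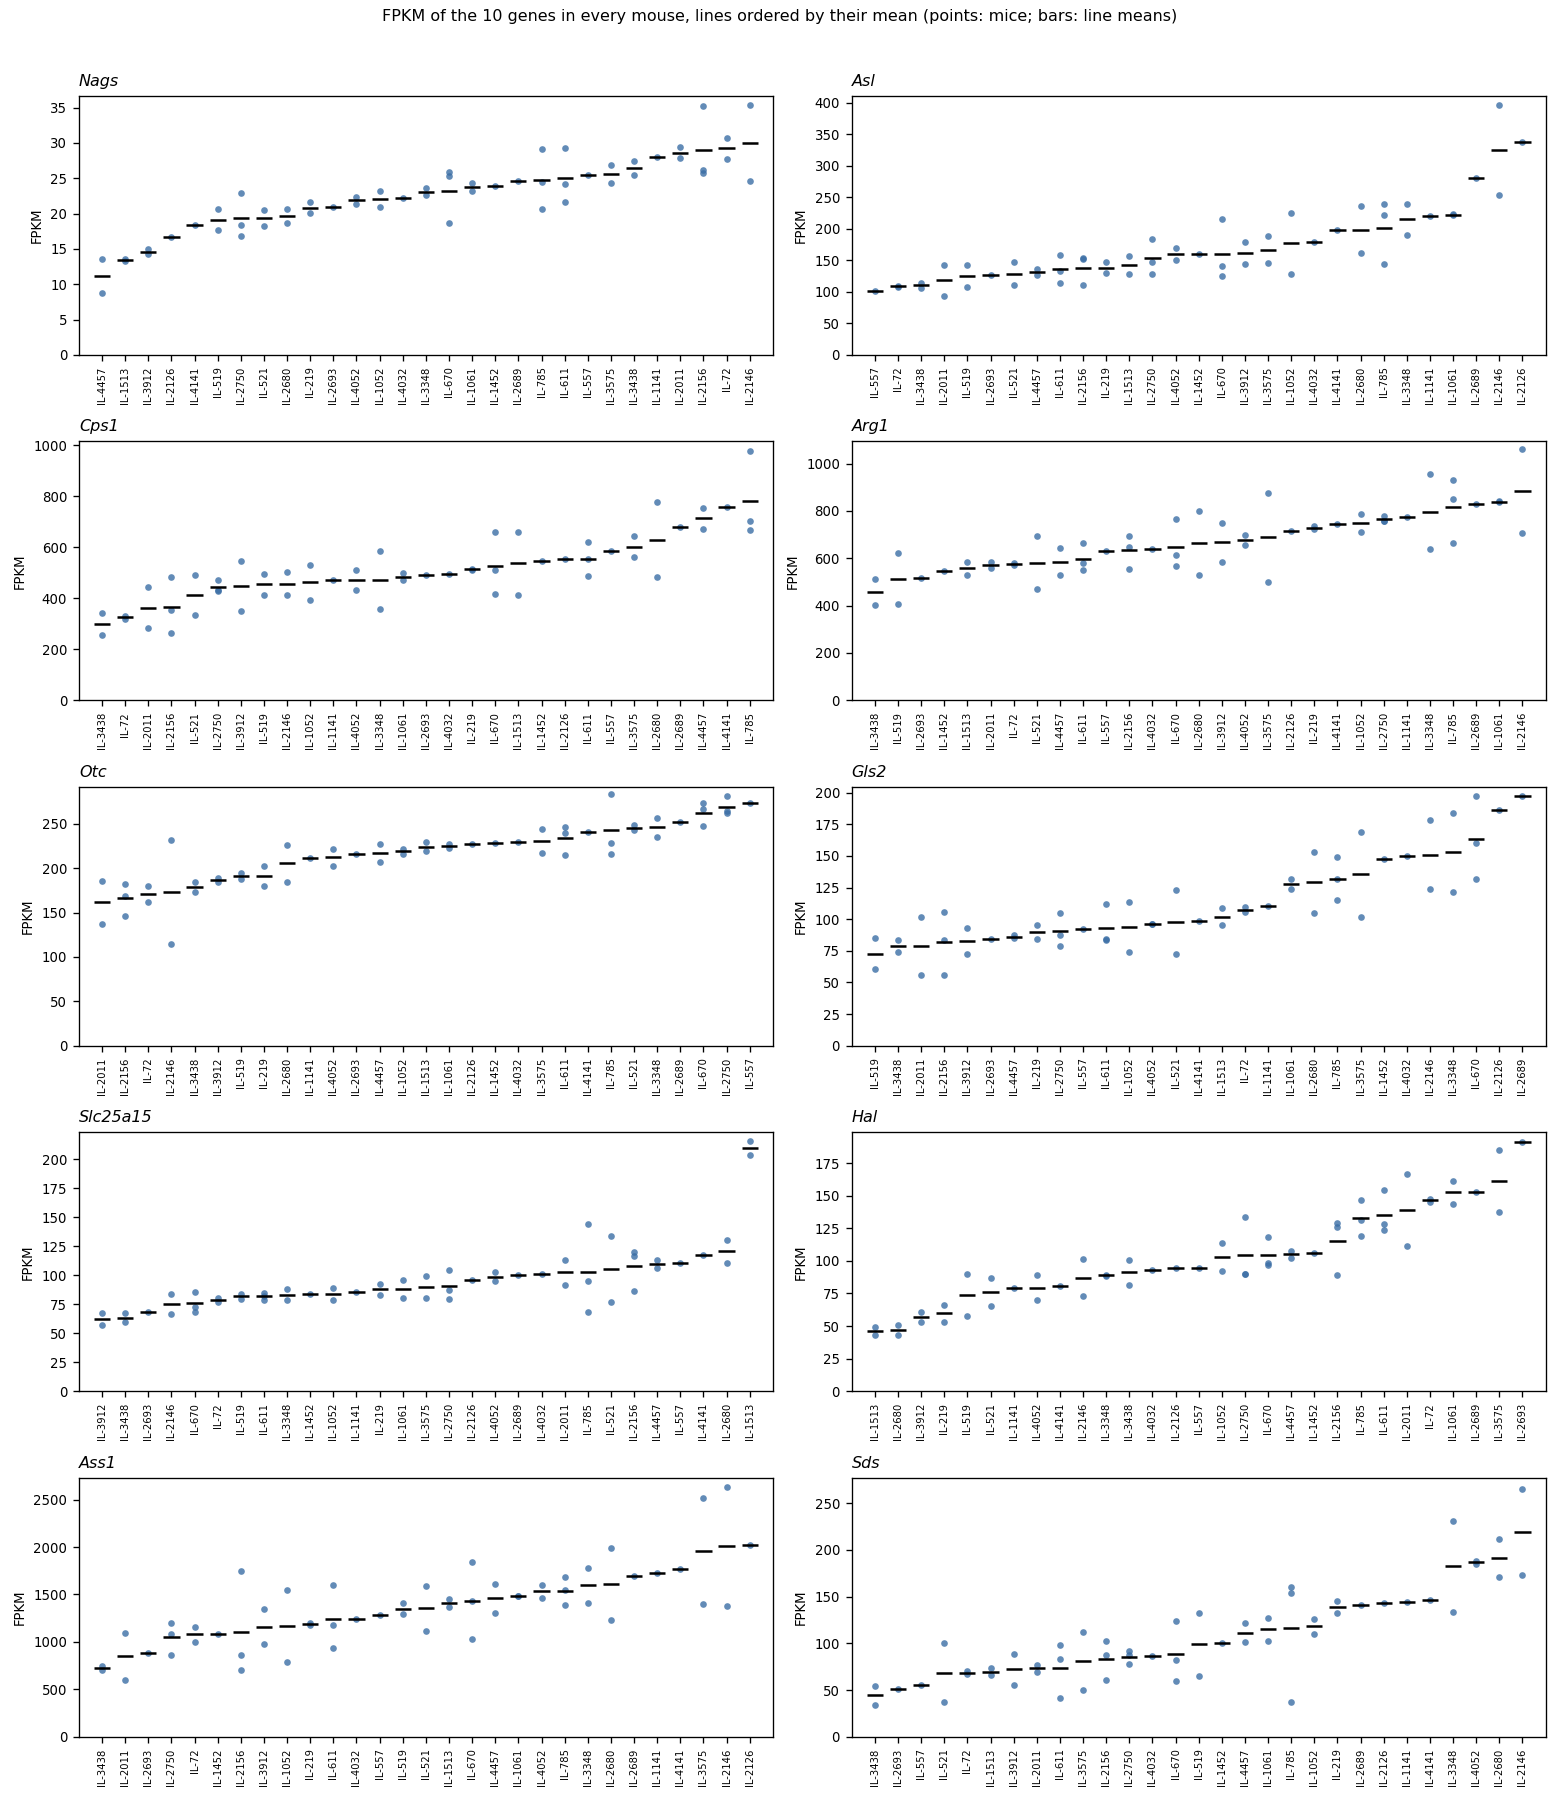
FPKM of each of the 10 genes (linear axis from 0) in every mouse, with CC lines ordered by their mean. Points are single mice and bars are line means. Slc25a15 in IL-1513 stands alone above all other mice, Hal spans 46.5 to 191 FPKM by line mean, and Ass1 overlaps across most lines.

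The sequence upstream of the transcription start was available from RefSeq (mouse build GRCm38.p6) for 5 of the 10 genes, Ass1, Hal, Nags, Otc and Slc25a15. Shown are the 250 bases before the start of Nags and Hal, the pair whose levels followed the line most closely, of Slc25a15, whose level set 1 line apart, and of Ass1, the most abundant and least line-bound transcript. They lie at chr11:102145263-102145512 (plus strand, Nags), chr10:93488518-93488767 (plus strand, Hal), chr8:22398622-22398871 (minus strand, Slc25a15, the first of its 2 annotated starts) and chr2:31470020-31470269 (plus strand, Ass1). Each is written 5′ to 3′ in the direction of transcription, and capitals mark letters that match a searched motif on either strand.
Nags: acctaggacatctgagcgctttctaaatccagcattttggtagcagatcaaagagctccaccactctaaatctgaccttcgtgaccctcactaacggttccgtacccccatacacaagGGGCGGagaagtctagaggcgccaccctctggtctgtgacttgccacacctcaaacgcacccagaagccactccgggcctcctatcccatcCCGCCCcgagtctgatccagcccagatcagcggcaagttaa
Hal: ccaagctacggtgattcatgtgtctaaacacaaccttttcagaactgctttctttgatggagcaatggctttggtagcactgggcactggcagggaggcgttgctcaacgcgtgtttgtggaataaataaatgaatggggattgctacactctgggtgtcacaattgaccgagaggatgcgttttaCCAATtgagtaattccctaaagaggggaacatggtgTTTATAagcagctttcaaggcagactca
Slc25a15: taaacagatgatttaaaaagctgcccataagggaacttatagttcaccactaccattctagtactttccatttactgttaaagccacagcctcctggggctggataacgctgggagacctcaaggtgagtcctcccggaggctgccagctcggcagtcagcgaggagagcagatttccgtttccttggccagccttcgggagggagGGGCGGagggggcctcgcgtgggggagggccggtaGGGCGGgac
Ass1: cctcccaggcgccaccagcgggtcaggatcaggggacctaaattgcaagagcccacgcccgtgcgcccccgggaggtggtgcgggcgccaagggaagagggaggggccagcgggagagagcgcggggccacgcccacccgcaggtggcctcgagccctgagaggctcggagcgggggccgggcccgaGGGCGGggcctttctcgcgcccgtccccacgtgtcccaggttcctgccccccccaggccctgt
The motifs searched were the TATA box (TATAAA), the CCAAT box (CCAAT), the GC box (GGGCGG) and the core of the cyclic AMP response element (TGACG), and no 2 matches in these 4 windows overlapped. Hal alone of the 4 held a TATA box, 28 bases before the start on the opposite strand, and a CCAAT box 64 bases before it, and its window was 45.6% G or C. Nags held 2 GC boxes, Slc25a15 held 2 and Ass1 held 1, with 55.6%, 57.6% and 75.6% G or C. The window of the second Slc25a15 start, not shown, held 5 GC boxes, some overlapping, and was 80.4% G or C. Among all 32851 windows of the same length, 12.4% held the TATA box, 33.8% the CCAAT box, 32.7% the GC box and 17.8% the cyclic AMP core, and the median G and C content was 52.4%. Otc, whose window lies on the X chromosome, held none of the 4 motifs. A match describes the letters only.

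Among the mitochondrial members, Nags (N-acetylglutamate synthase, chr11:102006827-102010791 in build mm9, plus strand) ranged over the mice from 8.72 through a median of 22.9 to 35.4 FPKM. Its lowest line was IL-4457 with 13.6 and 8.72 FPKM in its mice, followed by IL-1513 with 13.3 and 13.6, and its highest was IL-2146 with 35.4 and 24.7. The mice of IL-1513 agreed closely and those of IL-2146 did not. Cps1 (carbamoyl phosphate synthetase 1, chr1:67169600-67277833, plus strand), the rate-setting first enzyme, ranged from 256 through 494 to 979.9 FPKM, with IL-3438 lowest (343 and 256) and IL-785 highest (702, 667 and 979.9, the last being the mouse with Xist). Otc (ornithine transcarbamylase, chrX:9829431-9898150, plus strand), which makes citrulline and has 1 copy in males, varied least of the 10 between lines, with a ratio of 1.69 between the highest and lowest line mean. Its mice ranged from 114 through 222 to 283 FPKM, with the lowest line mean in IL-2011 (138 and 185) and the highest in IL-557 (272.9, 1 mouse).

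Slc25a15 (the mitochondrial ornithine carrier, chr8:23486026-23509093, minus strand), which exchanges cytosolic ornithine for citrulline, had 1 line far from the rest. The mice ranged from 57.6 through 86.5 to 216 FPKM, and both mice of IL-1513, at 216 and 204, were above all 53 other mice. In order of the line mean, Slc25a15 was at 62.7 FPKM in IL-3912, 63.6 in IL-3438, 68.5 in IL-2693, 75.6 in IL-2146, 75.8 in IL-670, 78.7 in IL-72, 81.9 in IL-519, 82.0 in IL-611, 83.2 in IL-3348, 83.9 in IL-1452, 84.0 in IL-1052, 85.6 in IL-1141, 88.0 in IL-219, 88.4 in IL-1061, 89.97 in IL-3575, 90.5 in IL-2750, 95.6 in IL-2126, 98.8 in IL-4052, 99.9 in IL-2689, 101 in IL-4032, 103 in IL-2011 and IL-785, 106 in IL-521, 108 in IL-2156, 109.6 in IL-4457, 111 in IL-557, 118 in IL-4141, 121 in IL-2680 and 209.8 in IL-1513. Only the last step, from IL-2680 to IL-1513, was larger than the spread between line mates (0.79 against an SD of 0.24 on the log2(FPKM + 1) scale), so the other neighbours did not differ beyond their spread.

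Of the cytosolic members, Ass1 varied most between mice of a line (coefficient of variation 27.9%), Asl less (22.6%) and Arg1 least (17.98%), where the mitochondrial members lay between 10.99% (Otc) and 21.1% (Cps1). Ass1 (argininosuccinate synthase, chr2:31325727-31376192, plus strand) ranged from 601 through 1367 to 2630 FPKM. Its lowest line was IL-3438 with 748 and 703, and IL-2146 held both a high mouse at 2630 and a mid-range mouse at 1383. Asl (argininosuccinate lyase, chr5:130487128-130501002, minus strand), which releases arginine, ranged from 93.5 through 148 to 396 FPKM, with IL-557 lowest (102, 1 mouse) and IL-2126 highest (338, 1 mouse). Arg1 (liver arginase, chr10:24635014-24647276, minus strand), which splits arginine, ranged from 401 through 655 to 1061 FPKM and by line from 456 in IL-3438 to 884 in IL-2146. For Ass1 and Arg1 the SD between line mates (379 and 120 FPKM) was larger than the SD between line means (337 and 110).

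Among the genes that feed ammonia into the cycle, Gls2 (liver-type glutaminase, chr10:127631513-127647060, plus strand) ranged from 56.0 through 105 to 198 FPKM, with IL-519 lowest (60.4 and 84.8) and IL-2689 highest (198, 1 mouse). Hal (histidine ammonia-lyase, chr10:92951513-92982049, plus strand) ranged from 43.2 through 97.0 to 191 FPKM. Its line means stood at 46.5 in IL-1513, 47.1 in IL-2680, 56.9 in IL-3912, 59.7 in IL-219, 73.7 in IL-519, 76.0 in IL-521, 79.4 in IL-1141 and IL-4052, 81.1 in IL-4141, 87.0 in IL-2146, 89.0 in IL-3348, 91.2 in IL-3438, 92.9 in IL-4032, 94.3 in IL-2126, 94.4 in IL-557, 103 in IL-1052, 105 in IL-2750, IL-670 and IL-4457, 106 in IL-1452, 115 in IL-2156, 133 in IL-785, 135 in IL-611, 139 in IL-2011, 146 in IL-72, 152 in IL-1061, 153 in IL-2689, 161 in IL-3575 and 191 in IL-2693. The steps above IL-2680, IL-219 and IL-3575 exceeded the spread between line mates (SD 0.24, log2), and the other neighbours did not differ beyond it. The step above IL-3575, whose mice were at 137 and 185 FPKM, rests on the 1 mouse of IL-2693.

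Sds (serine dehydratase, chr5:120926540-120933941, plus strand), which makes pyruvate and ammonia from serine, had the widest ratio between lines, 4.97, and also the widest spread between line mates. Across mice it ranged from 33.97 through 99.9 to 266 FPKM. Its line means were 44.2 in IL-3438, 51.1 in IL-2693, 55.2 in IL-557, 68.5 in IL-521, 68.7 in IL-72, 69.6 in IL-1513, 72.2 in IL-3912, 73.2 in IL-2011, 74.0 in IL-611, 80.8 in IL-3575, 83.6 in IL-2156, 85.7 in IL-2750, 86.8 in IL-4032, 88.8 in IL-670, 99.0 in IL-519, 99.9 in IL-1452, 112 in IL-4457, 115 in IL-1061, 117 in IL-785, 118 in IL-1052, 139 in IL-219, 141 in IL-2689, 143 in IL-2126, 144 in IL-1141, 147 in IL-4141, 182 in IL-3348, 187 in IL-4052, 191 in IL-2680 and 219 in IL-2146. No neighbouring pair of lines differed beyond the spread between line mates (SD 0.55, log2). The mice of IL-785 show that spread, with 159.9, 36.7 and 153 FPKM in 1 line. Sds overlaps Plbd2 on the opposite strand over 651 bases, and Plbd2 had a median of 12.9 FPKM. It also overlaps Gm15690 (1062 bases, 0.57 FPKM), Gls2 overlaps Spryd4 (97 bases, 15.3 FPKM) and Nags overlaps Gm11586 (698 bases, 1.12 FPKM), each on the opposite strand. The library kit marks strand, but RSEM was run with default parameters, which do not use it, so reads from these shared bases cannot be told apart by strand.

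All 10 genes differed among the 21 lines with line mates, as did 88.5% of the 15285 genes tested (edgeR quasi-likelihood F test, Benjamini-Hochberg adjusted p under 0.05). The adjusted p was 6.5e-07 for Hal, 1.6e-06 for Nags, 1.1e-04 for Slc25a15, 2.0e-04 for Asl, 4.1e-04 for Otc, 0.0011 for Cps1, 0.0019 for Gls2, 0.0037 for Sds, 0.0196 for Arg1 and 0.0293 for Ass1. A count of 10 of 10 is therefore close to what most genes gave. Ass1 lost its call without replicate 1 of IL-3438 (adjusted p = 0.0670) or without replicate 2 (0.0726), and on log2(FPKM + 1) with limma both Ass1 (0.0816) and Arg1 (0.0504) missed the threshold.

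The share of the variance that lay between lines (intraclass correlation, ICC, on rank-based normal scores) differed widely among the 10 genes. It was 0.78 for Hal (jackknife SE 0.068), 0.65 for Nags (0.12), 0.58 for Otc (0.18), 0.54 for Asl (0.12), 0.44 for Gls2 (0.12), 0.43 for Cps1 (0.17), Sds (0.21) and Slc25a15 (0.23), 0.24 for Arg1 (0.20) and 0.19 for Ass1 (0.17). Over all 5949 genes that met the study's criteria for a variable trait, the median was 0.59 and the quartiles were 0.49 and 0.69. Hal exceeded 90.8% of these genes, while Arg1 exceeded 2.17% and Ass1 1.19% of them, so the 2 most abundant transcripts of the set were among those that followed the line least. The median of the 10 was 0.44. Without the doubted IL-1052 and IL-2750 the median was 0.47 against 0.67 over all genes, and on log2 values it was 0.49 against 0.63.

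Contrasts of each line with the mean of the other 20 gave 39 calls among 210 pairs of gene and line, 22 higher and 17 lower, in 17 of the 21 lines. Over all genes and lines, 18.2% of contrasts were called (edgeR, adjusted jointly over 320985 contrasts), and 39 of 210 is near that share. Hal had 9 calls, Nags 7, Asl 5, Otc 4, Cps1, Slc25a15 and Sds 3 each, Ass1 and Gls2 2 each and Arg1 1. In 38 of the 39 calls at least 1 mouse of another line lay within or beyond the range of the called line, the exception being Slc25a15 in IL-1513. Of the 39 calls, 13 held when any mouse of the called line was left out, 13 held in some of those fits and 13 in none, where a lone mouse often stood for the line.

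**Figure D2:**
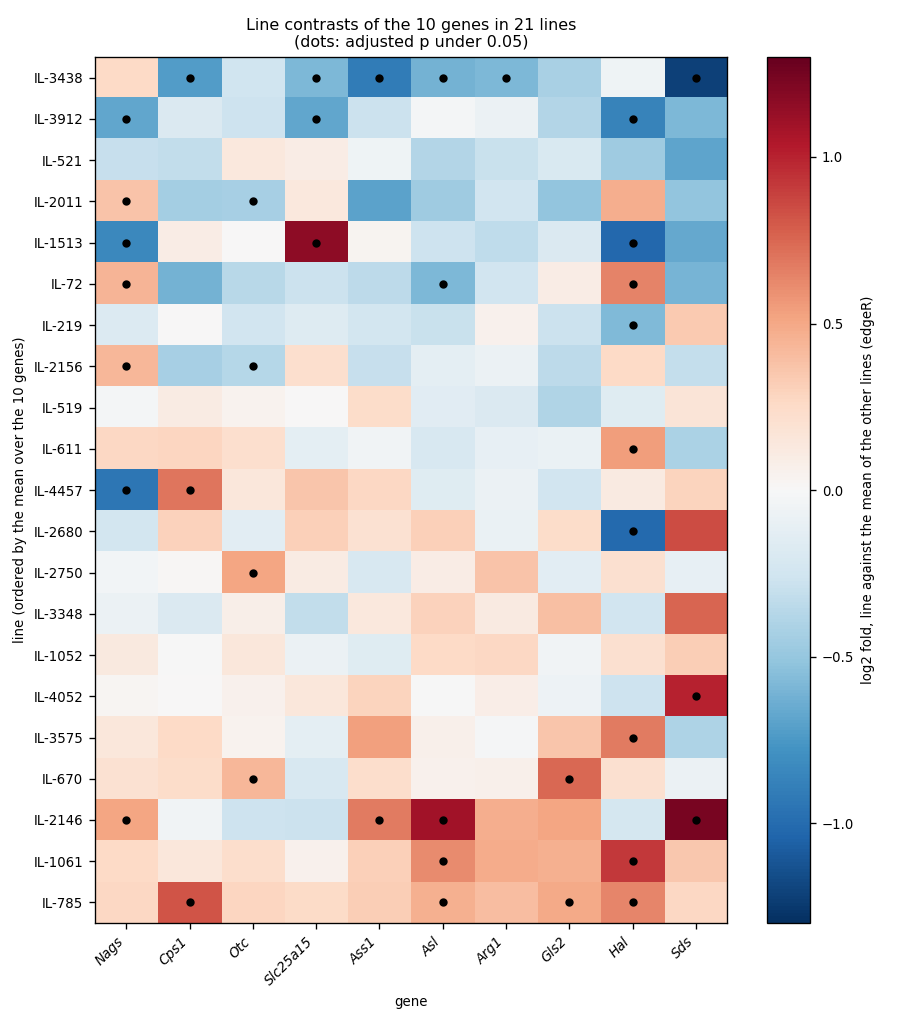
log2 fold of each of the 10 genes in each of the 21 lines with at least 2 mice against the mean of the other lines (color scale), with dots on contrasts at an adjusted p under 0.05. IL-3438 holds 6 lower calls, and IL-1513 combines higher Slc25a15 with lower Hal and Nags.

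IL-3438 had the most calls of lower expression among the 21 lines. It was lower than the other lines for 6 of the 10 genes, where 3.34% of all genes were called lower in this line, and it stood among the 5 lowest of the 29 line means for 8. The log2 fold was −1.21 ± 0.41 (SE) for Sds (54.4 and 33.97 FPKM in its 2 mice, median of the other line means 99.4), −0.91 ± 0.28 for Ass1 (748 and 703 against 1382), −0.73 ± 0.23 for Cps1 (343 and 256 against 493), −0.61 ± 0.21 for Asl (114 and 106 against 160.2) and −0.58 for both Arg1 (SE 0.20) and Slc25a15 (SE 0.19). Adjusted p-values lay between 0.0205 (Ass1) and 0.0396 (Arg1) by edgeR, and between 2 mice (Ass1, Slc25a15) and 8 mice (Asl) of other lines reached as low. Otc, Gls2, Hal and Nags did not pass, with log2 folds of −0.26, −0.43, −0.06 and +0.26. When a mouse of the line was left out, 5 of the 6 calls were lost with either mouse and that of Cps1 with 1 of them. In the same mice, 3 of 15 partners of the cycle, 4 of 16 genes of amino acid breakdown, 3 of 10 control genes, 2 of 9 other periportal genes and 1 of 10 pericentral genes, from lists of related liver genes, were called lower, and 1 gene of amino acid breakdown and 1 control gene were called higher. Among the lower ones were Pck1 of gluconeogenesis (−1.92 ± 0.34, 201 and 151 against 822 FPKM), Tat of tyrosine breakdown (−1.77 ± 0.41), the fasting-responsive Igfbp1 (−2.52 ± 0.80), the arginine transporter Slc7a2 (−1.25 ± 0.24), the transcription factors Cebpb (−1.25 ± 0.33) and Klf15 (−0.80 ± 0.22) and Got1, which supplies aspartate (−1.17 ± 0.42). Those higher were Cebpa (+0.56 ± 0.17) and Bhmt of betaine and homocysteine metabolism (+0.80 ± 0.26, 1402 and 1701 against 960.3 FPKM), and hepatocyte markers summed to 49682 and 50497 FPKM, within the range of the other mice.

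IL-2146 was higher for 4 of the 10 genes, in a line where 22.7% of all genes were called higher. Sds stood at 266 and 173 FPKM (+1.23 ± 0.31, adjusted p = 0.0053 by edgeR), Asl at 396 and 253 (+1.09 ± 0.17, 2.7e-05), Ass1 at 2630 and 1383 (+0.67 ± 0.24, 0.0451) and Nags at 35.4 and 24.7 (+0.51 ± 0.13, 0.0043). Replicate 1 carried the higher value each time, and only the Asl call held without either mouse. With replicate 2 alone the Ass1 contrast had an adjusted p of 0.81 by edgeR. The other 6 genes did not pass, and 4 of them had log2 folds below 0, which were −0.28 for Slc25a15, −0.27 for Otc, −0.22 for Hal and −0.05 for Cps1. Otc was at 114 FPKM in replicate 1, the lowest of all mice, and at 232 in replicate 2. Of the lists, 5 partners of the cycle were called higher and 0 lower, as were 4 and 1 genes of amino acid breakdown, 4 and 2 control genes, 2 and 1 other periportal genes and 1 and 1 pericentral genes. Among them, the glutamine transporter Slc38a3 (+0.97 ± 0.15), Gpt (+0.80 ± 0.17) and Gpt2 (+0.63 ± 0.17), which exchange nitrogen between alanine and glutamate, and Prodh (+1.03 ± 0.22) of proline breakdown were higher, and G6pc (−1.64 ± 0.49) and Igfbp1 (−2.21 ± 0.78) were lower. The stellate marker sums of this line were low in both mice (10.8 and 11.6 FPKM), as were the endothelial ones (Stab2, Clec4g, Pecam1, 11.06 and 11.13). They were close between the mice, and their part in these values was not tested.

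IL-1513 combined opposite calls. Slc25a15 was higher (216 and 204 FPKM, +1.16 ± 0.15, adjusted p = 1.8e-06 by edgeR), whereas Hal (49.6 and 43.5, −1.02 ± 0.20, 4.7e-04) and Nags (13.3 and 13.6, −0.84 ± 0.15, 1.15e-04) were lower. All 3 calls held without either mouse, and 23.9% of all genes were called in this line in either direction. The other 7 genes did not pass, with log2 folds from −0.67 (Sds) to +0.10 (Cps1). Of the lists, 4 partners of the cycle were called higher and 2 lower, 2 genes of amino acid breakdown higher and 5 lower, 4 control genes higher and 2 lower, 2 other periportal genes higher and 1 lower, and 5 of 10 pericentral genes higher and 0 lower. The largest difference of any listed gene was that of Igfbp1, an insulin-repressed transcript, at 812 and 579 FPKM against a median of 30.2 in the other lines (+4.17 ± 0.40, 4.7e-09). G6pc (+2.12 ± 0.33), Got1 (+1.86 ± 0.30), Tat (+1.82 ± 0.28), Ppargc1a (+1.61 ± 0.27), Cebpb (+1.23 ± 0.25) and Klf15 (+0.95 ± 0.18) were higher. Oat, which breaks down ornithine, was also higher (460.5 and 514 FPKM, +1.43 ± 0.29), as were the pericentral ammonium transporter Rhbg (+1.80 ± 0.18) and glutamine synthetase Glul (+0.64 ± 0.14). The hepatocyte markers summed to 26993 and 27291 FPKM in this line against a median of 43122 in the other mice, and their part in these values was not tested.

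In IL-785 all 10 genes lay above the other lines in sign, and the share of all genes that did so was not computed. Of the 10, 4 were called higher, where 11.7% of all genes were called higher. They were Cps1 (702, 667 and 979.9 FPKM, +0.82 ± 0.16, adjusted p = 3.9e-04 by edgeR), Hal (119, 132 and 147, +0.64 ± 0.14, 0.0015), Gls2 (+0.50 ± 0.17, 0.0365) and Asl (+0.46 ± 0.15, 0.0348). Without replicate 3, the mouse with Xist, Cps1 (+0.62, 0.0232) and Hal (+0.54, 0.0271) kept the call and Gls2 (+0.41, 0.18) and Asl (+0.38, 0.18) lost it. The losses were not particular to that mouse. Over the 3 fits that each left out 1 mouse of the line, Cps1 and Hal kept the call in 3, Asl in 1 and Gls2 in 0. Of the 10 pericentral genes, Rhbg was lower (−2.70 ± 0.24, 1.02, 0.79 and 1.18 FPKM against 5.09), Glul was lower (−0.39 ± 0.13), Slc1a2 was higher (+0.69 ± 0.17, 17.5, 20.1 and 36.9 FPKM against 14.7) and 7 were not called. In the other lists, 5 partners of the cycle, 6 genes of amino acid breakdown, 2 control genes and 1 other periportal gene were called higher and 0 lower.

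IL-3912 was lower for Hal (60.6 and 53.3 FPKM, −0.87 ± 0.20), Slc25a15 (67.8 and 57.6, −0.68 ± 0.19) and Nags (14.3 and 14.97, −0.67 ± 0.14), where 5.86% of all genes were called lower. The calls of Hal (log2 folds −1.01 and −0.73) and Slc25a15 (−0.79 and −0.57) were each lost without 1 mouse of the line. The other 7 genes were below the other lines in sign without passing, and the share of all genes below in sign was not computed. In IL-72, where 16.1% of genes were called in either direction, Hal (+0.64 ± 0.17) and Nags (+0.44 ± 0.13) were higher while Asl was lower (−0.58 ± 0.21). The Asl call of IL-72 was lost in 10 of the fits without 1 mouse of another line. The Hal call of IL-72 was lost without either of its mice (log2 folds +0.63 and +0.66). That of Nags was lost without 1 of them (+0.34 and +0.53). Nags also split the line IL-4457, with Nags lowest of all lines (−0.94 ± 0.15, adjusted p = 2.8e-05 by edgeR) beside higher Cps1 (755 and 672 FPKM, +0.70 ± 0.20, 0.0113). The Nags call of IL-4457 held without either mouse, and its Cps1 call was lost without 1 of them (log2 folds +0.61 and +0.78). Hal was lower in IL-2680 as well (51.0 and 43.2, −1.01 ± 0.20) and higher in IL-1061 (144 and 161, +0.92 ± 0.17), both calls holding without either mouse. Otc was higher in the doubted IL-2750 (262, 264 and 281, +0.52 ± 0.11) and in IL-670 (267, 273 and 248, +0.43 ± 0.11). It was lower in IL-2156 (169, 182 and 147, −0.37 ± 0.12), the line with the high cholangiocyte markers, whose part in it was not tested. The Otc call of IL-2156 was lost whichever of its 3 mice was left out (log2 fold −0.42 to −0.31).

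Across the 29 line means, 9 of the 45 pairs of these genes passed on both Spearman's rho and Pearson's r (adjusted p under 0.05 for each), all of them positive. Their rho was at least 0.58, a value that 1.91% of all pairs of variable genes reached. Asl was the center of these pairs, with Arg1 (rho = 0.80, adjusted p = 0.0014; r = 0.76, adjusted p = 9.8e-04), Sds (0.77), Ass1 (0.74) and Gls2 (0.72), by a two-sided permutation test with 100000 permutations, adjusted over 685 relations. The other pairs were Arg1 with Sds (0.69), Ass1 with Sds (0.67), Ass1 with Gls2 (0.66), Ass1 with Arg1 (0.60) and Cps1 with Ass1 (0.58, adjusted p = 0.0270). Without the 2 lines farthest from the median of the first gene, Pearson's r of these 9 pairs still lay between 0.51 (Ass1 and Arg1) and 0.78 (Asl and Arg1). The last 2 pairs, Ass1 with Arg1 and Cps1 with Ass1, lost the call without IL-3438, and the last also without IL-2011 or IL-2156. The called pairs joined Ass1, Asl, Arg1, Gls2 and Sds, with Cps1 through Ass1, and no pair with Nags, Otc, Slc25a15 or Hal was called. Cps1 with Otc passed on Pearson's r (0.60, adjusted p = 0.0190) and narrowly missed on rho (0.52, adjusted p = 0.0525), by the same permutation test. The lowest rho was that of Hal and Sds (−0.29, adjusted p = 0.35), and the median over the 45 pairs was 0.24 against 0.080 over all pairs of variable genes.

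**Figure D3:**
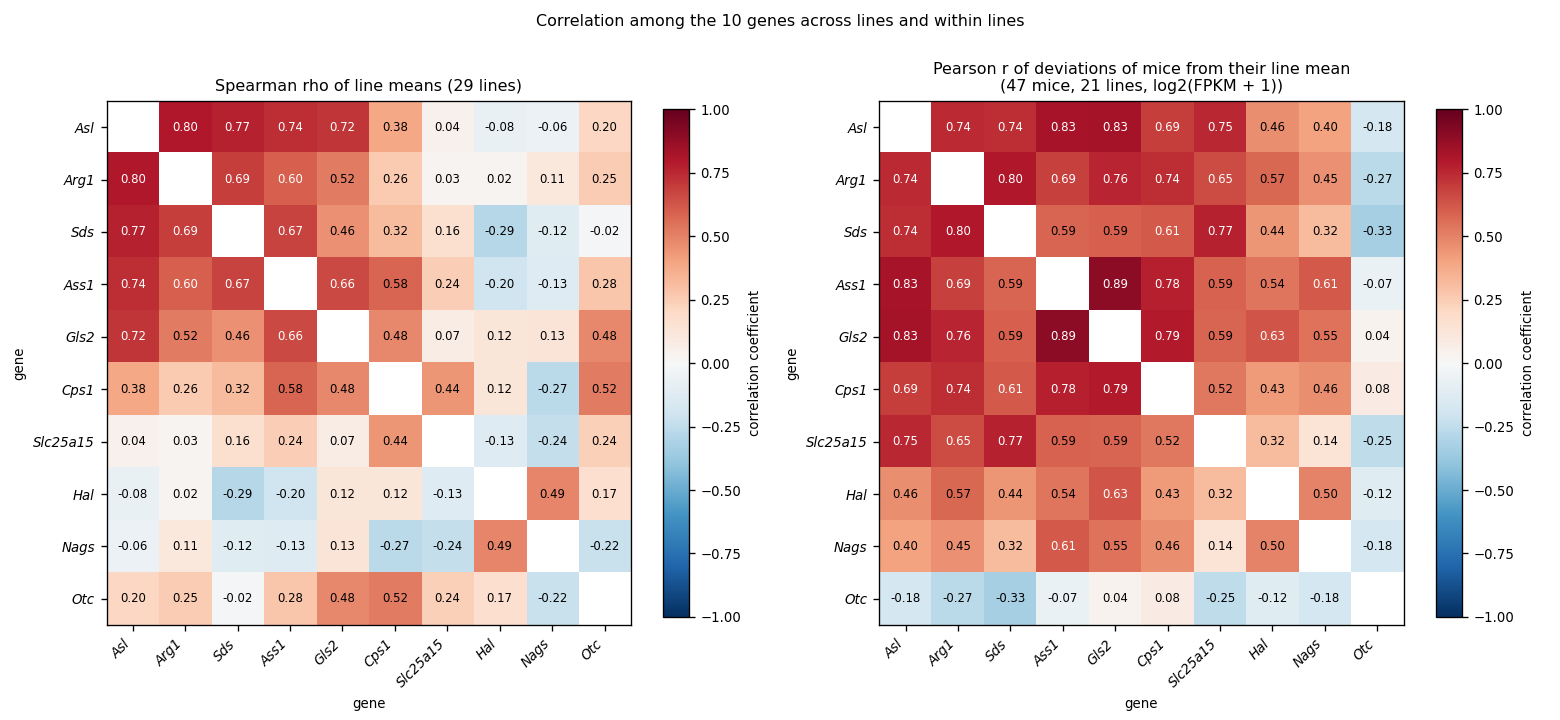
Spearman rho of the 29 line means for each pair of the 10 genes, and Pearson's r of the mice's deviations from their line mean (47 mice, 21 lines), on a common color scale. Across lines the high values gather among Ass1, Asl, Arg1, Gls2 and Sds, and within lines all pairs without Otc are positive.

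**Figure D4:**
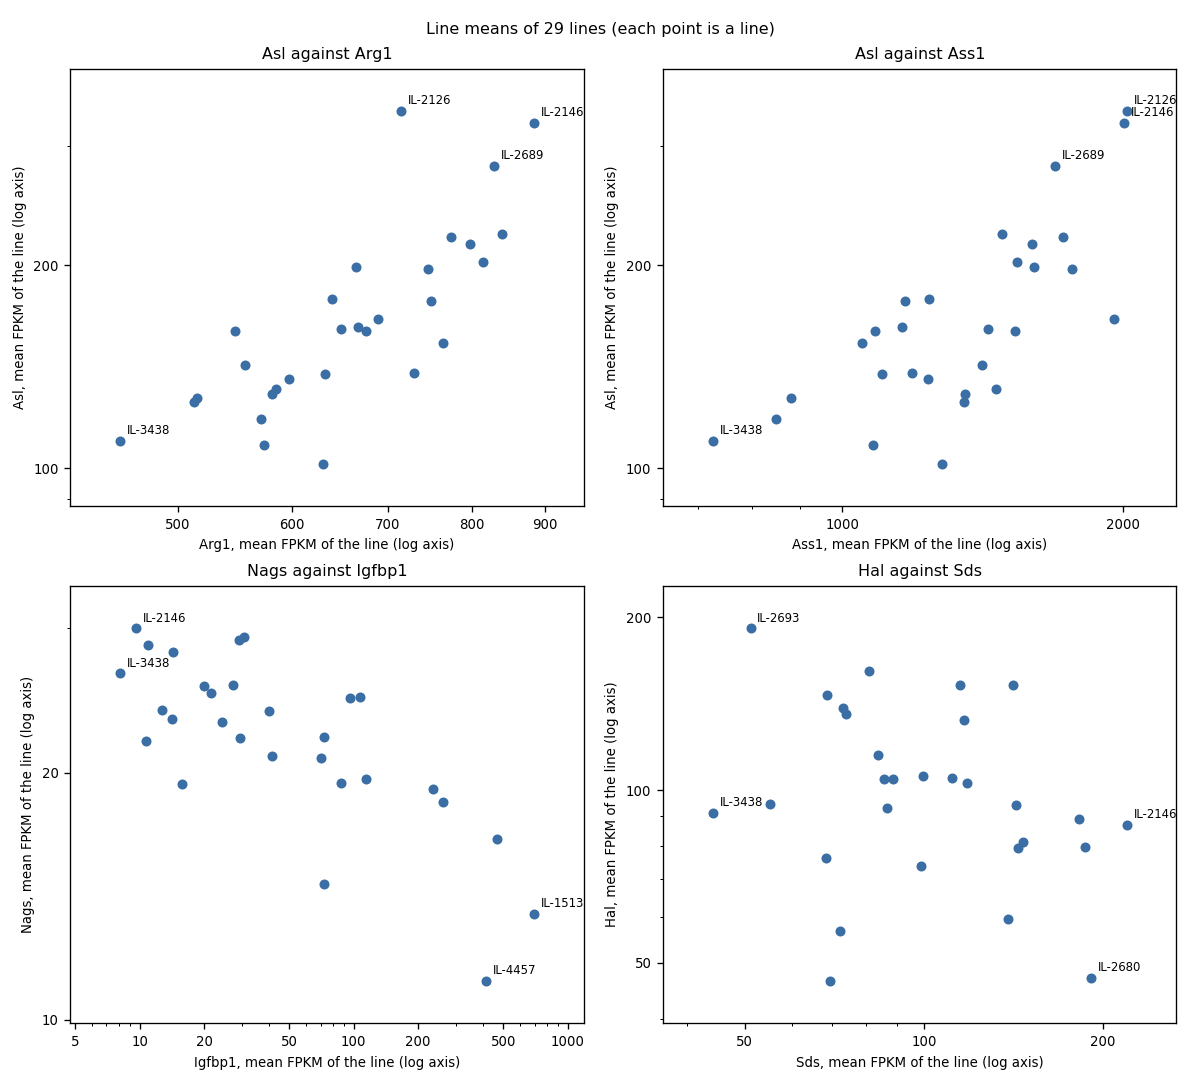
Line means in FPKM (log axes), 1 point per line (29 lines), for Asl against Arg1, Asl against Ass1, Nags against Igfbp1 and Hal against Sds. Asl was higher where Arg1 and Ass1 were higher (rho 0.80 and 0.74), Nags was lower where Igfbp1 was higher (−0.66), and Hal and Sds show no called relation (−0.29).

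Apart from Otc, the genes also varied together within lines, from mouse to mouse around the line mean. As a description over 47 mice in 21 lines, the median Pearson's r between the deviations of 2 genes was 0.57 over the 45 pairs, against 0.12 over all pairs of variable genes. All 36 pairs without Otc were positive (median 0.60, highest 0.89 for Ass1 with Gls2), whereas 2 of the 9 pairs with Otc were positive (median −0.18). Otc was singled out after its values were seen. Leaving out 1 line at a time moved the median of the 45 pairs between 0.53 (without IL-2146) and 0.62 (without IL-785), and without the doubted lines and IL-785 it was 0.71 over 39 mice. The values of 1 mouse come from 1 library and share its depth and RNA quality, whose part was not tested.

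The 61 other genes of nitrogen and amino acid metabolism, of the lobule's zones and of hormone control were taken from lists. By the F test, 14 of 15 tested partners of the cycle, 15 of 16 genes of amino acid breakdown, 10 of 10 pericentral genes, 9 of 9 other periportal genes and 9 of 10 control genes differed among lines, where 88.5% of all genes did. Got2, the mitochondrial aspartate aminotransferase (adjusted p = 0.191), Hpd (0.178) and the glucocorticoid receptor Nr3c1 (0.0847) did not pass, and Slc25a2, another ornithine carrier, was listed at 0.15 FPKM or less in every line and was not tested. Among the widest ratios of highest to lowest line mean were those of Got1 (8.31), Gpt2 (4.12) and Slc7a2 (4.03) among the partners, Tat (14.5) and Bhmt (9.78) in amino acid breakdown, and Tbx3 (48.9), Axin2 (23.7) and Oat (22.8) among pericentral genes. Others were G6pc (13.8), Etnppl (11.02) and Cdh1 (8.75) of the other periportal genes and Igfbp1 (85.8) and Klf15 (5.69) of the control genes. Sds, the widest of the urea set, had 4.97. The ratios of Tbx3 and Axin2 rest on lowest line means near the floor, 0.215 and 0.115 FPKM, both in IL-4457.

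Of 610 relations between the 10 genes and these lists, 22 were called across lines, 20 positive and 2 negative. The share that this rule calls over all pairs of variable genes was not computed, so these counts have no background. Both negative ones were of Nags, with Igfbp1 (rho = −0.66, adjusted p = 0.0093; r = −0.76, adjusted p = 9.8e-04, and r = −0.65 without the 2 farthest lines) and with Hnf4a (rho = −0.60, adjusted p = 0.0167), by the same permutation test. Within lines the deviations of Nags and Hnf4a went the other way (r = 0.41, a description). Among the partners, Asl followed the glutamine transporter Slc38a3 (0.80), Gls2 followed the aminotransferase Gpt (0.75) and Sds followed Gpt2 (0.72). In amino acid breakdown Otc followed Tdo2 (0.65) and Sds followed Tat (0.65), whereas Asl and Tat (rho 0.63) missed on Pearson's r (0.50, adjusted p = 0.0613 by the permutation test). The third called relation of a control gene was that of Sds with Hnf4a (0.57, adjusted p = 0.0294 by the permutation test), opposite in sign to that of Nags. Sds with Klf15 passed on rho (0.59) and missed on Pearson's r (adjusted p = 0.0504 by the permutation test). No pericentral gene was called. Slc25a15 with Oat was the closest by rho (0.58, permutation adjusted p = 0.0282), with r = 0.48 (permutation adjusted p = 0.0886), and Axin2 with Nags (0.52) and Tbx3 with Sds (−0.52) came next.

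For each gene, the 3 variable genes with the most similar order of line means were named by rho over 29 lines. Nags was most like Cpn2 (0.86), Esrp2 (0.83) and Spryd4 (0.81), and Hal was also most like Esrp2 (0.63), then Steap3 (0.63) and Ggt6 (0.60). Gnmt, which uses up S-adenosylmethionine to methylate glycine, was the first match of both Ass1 (0.84) and Asl (0.83). Ass1 was next to Zap70 (0.77) and Ndufc2 (0.75), and Asl to Slc38a3 (0.80) and Arg1 (0.80). Arg1 was most like Asl (0.80), Sds (0.69) and Ftl2 (0.67), Gls2 like Dcxr (0.82), Sdhb (0.76) and Gpt (0.75), and Sds like Gm129 (0.80), Thrsp (0.78) and Slc37a4 (0.77). Cps1 and Otc shared Amy1 (0.67 and 0.72), an amylase with near copies, so that its level is uncertain. Cps1 was further like Lyve1 (0.62) and Lancl1 (0.60), which lies 0.084 Mb from it on chromosome 1, and Otc like Akr1c6 (0.69) and Pgrmc1 (0.68), the latter 24.2 Mb away on the X chromosome. Slc25a15 was most like Eid1 (0.71), Rheb (0.69) and Wasl (0.67). The highest matches of Cps1 and Hal were thus weaker than those of Nags, Ass1 and Asl.

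Isoform shares, the percent of a gene's expression that the quantification assigned to each annotated transcript, were description only, since transcripts of a gene share most reads. Cps1, Arg1 and Slc25a15 had 1 annotated isoform, and in Ass1, Otc and Sds 1 coding isoform took 99.8%, 97.7% and 91.4% as the mean of line means. Nags, Gls2 and Hal were divided. The coding Nags transcript (ENSMUST00000055409) took 57.1% ± 8.83 (SD, n = 29 lines), from 33.7% in IL-557 (1 mouse) to 75.6% in IL-1052 (78.7% and 72.6%), with an SD of 5.997 between line mates, and most of the rest was a processed transcript without a coding frame. The main coding Gls2 transcript (ENSMUST00000044776) took 43.9% ± 10.4 (n = 29), from 16.95% in IL-2126 (1 mouse) to 62.5% in IL-72 (2 mice), and a retained-intron form took 30.4%. For Hal, a form annotated as a target of nonsense-mediated decay took 38.1% ± 8.07 and the coding form 37.7% ± 5.15, and the coding share was highest in IL-1513 (51.6%), the line with the lowest Hal level. Asl had 9 isoforms, the main one at 58.8% ± 5.62.

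**Figure D5:**
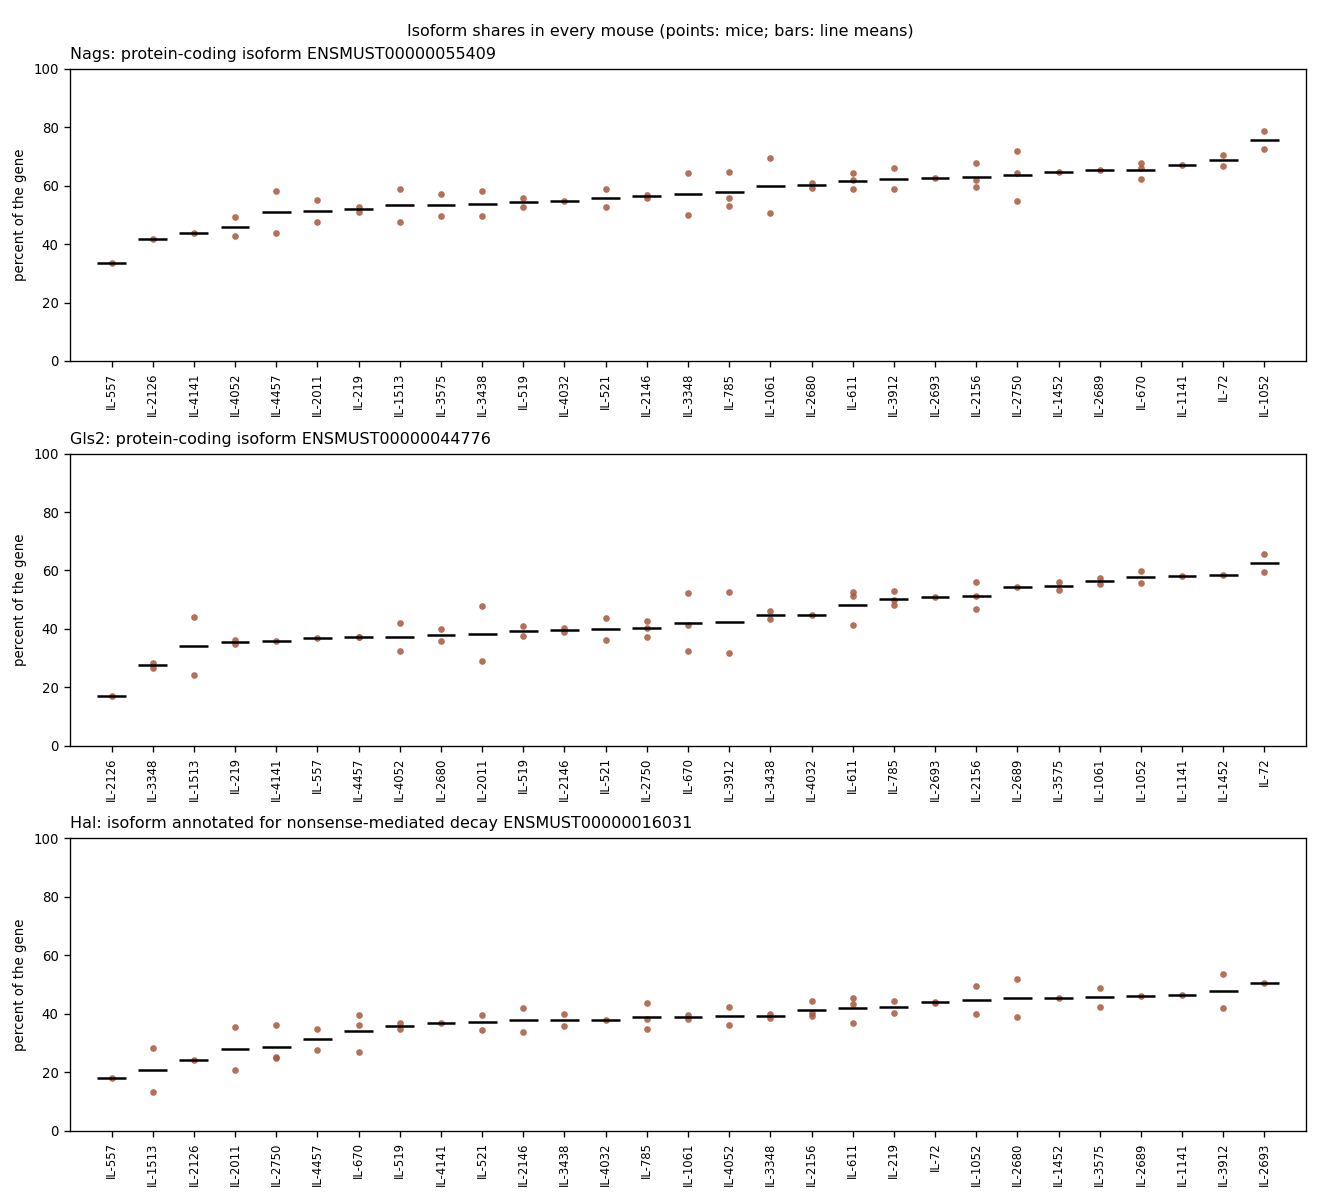
Percent of the gene's expression assigned to 1 isoform in every mouse, by line, for Nags ENSMUST00000055409 (coding), Gls2 ENSMUST00000044776 (coding) and Hal ENSMUST00000016031 (annotated to nonsense-mediated decay). Shares run from 33.7% to 78.7% for Nags, from 16.95% to 65.5% for Gls2 and from 13.2% to 53.6% for Hal.

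Body weight gave no call for any of the 10 genes across the 29 line means, nor for any of the 10340 genes tested, so 0% were called (limma with age as covariate, 706 genes at an unadjusted p under 0.05). All 10 slopes were negative, but the share of negative slopes over all genes was not computed, so this count has no background. Some slopes were smaller than their SE, such as that of Otc (−0.003 ± 0.010). The steepest was that of Gls2, −0.044 ± 0.016 on the log2(FPKM + 1) scale per gram (unadjusted p = 0.0123, limma, adjusted p = 0.70). None of the 30 correlations of the 10 genes with line means of body weight, age or depth was called.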

How the data were processed

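Liver RNA of 55 male mice of 29 CC lines was sequenced from TruSeq Stranded mRNA libraries. The authors aligned fragments with Bowtie 2 to the mouse transcriptome (build mm9, Ensembl release 67) and quantified genes and isoforms with RSEM 1.2.18 at default parameters, without pooling mice, and per the labels no treatment was given. The deposited tables give expected counts, FPKM, TPM and the percent of a gene's expression per isoform. Deposited expected counts (estimated counts, rounded to whole numbers here) were tested, and the authors' FPKM and TPM values were described. No column of other samples was used. The 10 genes had 506 estimated counts or more in each mouse. Beyond the correlations of line means with depth, the part of read depth in their spread between mice was not tested.

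Groups were the CC lines named in the labels. The mice of a line carry no replicate number in the labels, and nothing says more than that they are separate mice. The replicate numbers used here were assigned within each line in the order of the samples. Line effects were tested with edgeR 4.0.16 (TMM, filterByExpr, quasi-likelihood) on the 47 mice of 21 lines with at least 2 mice, as an F test and as each line against the mean of the others, adjusted by Benjamini-Hochberg over all genes or all genes and lines. Body weight was tested with limma 3.58.1 on line means of log2(FPKM + 1) over genes with a mean of at least 1 FPKM, with age as covariate. Line means were correlated by Pearson (log2(FPKM + 1)) and Spearman with 100000 permutations. The ICC used van der Waerden scores of FPKM rounded as in the study, over genes reaching 2 FPKM with at least 12 levels. Tests were checked on simulated data. Alternatives were DESeq2 1.42.0, other size factors, filters, units and pseudocounts, limma on FPKM, and leaving out mice or lines.

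The 10 genes, the other lists, the naming rules (the 3 most similar genes, the 3 widest ratios, genes failing the F test, the 3 strongest correlations per list, the full order for the 3 widest members) and the tests were chosen with earlier results of these data known. Some list genes that these rules name are not reported here. Alternatives without IL-785 were added after its Xist value was seen. Gene coordinates are those of mm9, and promoter windows those of RefSeq on GRCm38.p6.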

Additional observations from a re-analysis of the deposited data

How the results depend on the processing

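No paired analysis was made, because mice of different lines are separate animals and nothing in the labels pairs them. The count of genes that differed among lines was 10 with DESeq2, other size factors, no filter, a minimum of 10 counts in every mouse, all 29 lines or without IL-1052 and IL-2750, 8 with limma on log2(FPKM + 1), and 9 to 10 when each mouse was left out. Single-line calls, 39 in all, numbered 45 with DESeq2, 39 with RLE size factors, 37 without a filter, 42 with the count minimum, 33 with limma, 41 without IL-1052 and IL-2750 and 30 (without replicate 2 of IL-3438) to 46 (without replicate 2 of IL-521) without each mouse. Of the 39 calls, 39 stayed called with DESeq2, with RLE and with the count minimum, 35 without a filter and 32 with limma, which moved line medians by −0.17 (IL-519) to 0.14 (IL-3348) on the log2 scale. Calls lost in at least 1 of these fits were Arg1, Asl, Ass1, Gls2, Nags, Otc or Sds in IL-3438, IL-1061, IL-72, IL-785, IL-2146, IL-2011 or IL-4052, and the cause was not tested. Correlated pairs, 9 in all, numbered 9 with a pseudocount of 0.1, 11 on TPM, 12 on TMM-scaled CPM, 10 on unlogged FPKM, 6 over the 21 lines with line mates, 10 without IL-1052 and IL-2750, 9 without IL-785 and 7 (without IL-3438) to 11 (without IL-4457) without each line. All 9 stayed positive throughout. On TPM the ICC of Asl was 0.40 and that of Hal 0.71. Body weight called 0 genes of the set under every alternative. None of the 39 calls and 9 called pairs changed direction in the fits that held them. The signs of results that were not called were not followed. Each of the 10 genes had 506 or more estimated counts in every mouse, while some isoforms had far fewer. Beyond the correlations of line means with depth, the part of depth in these values was not tested.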
